A study of Mus musculus with 4 samples.

Results

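The 8 genes described here carry the TGF-beta signal in myeloid cells of the brain: the ligand gene Tgfb1, the milieu gene Nrros that holds the ligand on the cell surface, the receptor genes Tgfbr1 and Tgfbr2, the signal carriers Smad2, Smad3 and Smad4, and the inhibitor Smad7. They were chosen by symbol from the deposited gene list and are 8 of the 32227 genes listed, and each of the 8 was found. TGF-beta 1 is made as a latent complex, which the protein of Nrros (also called LRRC33) anchors on microglia and macrophages until integrins release it. The freed ligand binds the type 2 receptor (Tgfbr2), which phosphorylates the type 1 receptor (Tgfbr1). That kinase phosphorylates the proteins of Smad2 and Smad3, which enter the nucleus with the protein of Smad4, and among the genes they switch on is Smad7, whose product turns the receptor off. In mouse brain the pathway is known for keeping microglia in their mature state: without it, genes such as P2ry12, Tmem119 and Sall1 are lost and genes such as Apoe, Axl and Ms4a7 come up.

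The cells came from the cortex of wild-type (WT) mice at postnatal day 15. The mice had received an adeno-associated virus in the cortex at birth or a day later, and the GfaABC1D promoter directed what it carried to astrocytes. One group received Hevin, the secreted astrocyte protein encoded by Sparcl1, and the control group received membrane-tagged mCherry (mCherry-CAAX), a fluorescent protein, so the controls carried a virus and an astrocyte transgene too. All animals were perfused, and all cortices dissociated, with transcription blockers present (actinomycin D and triptolide, with the translation blocker anisomycin during dissociation), and CD11b-positive cells were picked with magnetic beads. Each group had 2 single-cell libraries made with PIPseq v4.0PLUS. How many animals a library pools is not stated, so p-values here measure only the spread between these libraries, which may be technical. Where classes of the same libraries are compared, it is the spread of the class difference from library to library.

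Of 61686 barcodes, 61371 were kept. The libraries held 49781430 to 67832685 UMIs (unique molecular identifiers, counted transcripts), with a median of 2317 to 4037 UMIs per barcode. The lowest barcode total ranged between 965 and 2993 UMIs by library, and pairs of libraries shared 1 to 7 barcodes. Over all kept cells Sparcl1 had 86.4 and 78.4 CPM (UMIs of the gene per 1000000 UMIs of the cells summed) in Hevin libraries, against 123 and 91.4 CPM in mCherry libraries. In the few cells gated as astrocytes it had 4897 and 8425 CPM in Hevin libraries, against 5502 and 6501 CPM in mCherry libraries. So Sparcl1 does not check the labels in these astrocyte-poor cells, and whether RNA from the virus was counted is not given in the sources used here.

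Cells were placed in classes by the summed UMIs of marker genes, none of which is among the 8. Apoe-high cells had at least 200 UMIs of Apoe per 10000, at least 1 UMI of Ms4a7, none of Sall1 and no other gate. Border macrophages, the macrophages of the meninges and vessels, had at least 80 UMIs per 10000 of Lyve1, F13a1, Cd163, Mrc1, Pf4 and Cbr2. Microglia-gated cells had at least 80 UMIs of 8 microglial markers (among them P2ry12, Tmem119 and Sall1) per 10000 UMIs and fewer than 150 of Apoe. Apoe-high cells numbered 6868 and 4043 in Hevin libraries (34.9% and 31.0% of kept cells), against 22 and 15 in mCherry libraries (0.123% and 0.138%). Border macrophages numbered 1102 and 777 in Hevin libraries, against 1202 and 795 in mCherry libraries. Microglia-gated cells numbered 6452 and 5733 in Hevin libraries (32.8% and 44.0%), against 15396 and 9354 in mCherry libraries (86.3% and 86.2%). A further 22.5% and 15.4% of cells in Hevin libraries, against 2.57% and 2.36% in mCherry libraries, passed no gate. In the microglia-gated cells the 8 markers summed to 13287 and 14424 CPM in Hevin libraries, against 15654 and 16111 CPM in mCherry libraries, a height that the gate itself requires and that is no check of the name. Cells within 20% of the microglial bound made up 16.8% and 14.4% of Hevin libraries, against 4.55% and 4.21% of mCherry libraries, so the gate cuts through a denser range of cells in the Hevin libraries.

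The starts of 4 members are shown, a pair that was lower and a pair that was higher in border macrophages than in microglia, as described further on. RefSeq promoters (build GRCm38.p6) matched 5 of the 8 members, and each sequence is the 250 bases before the start, 5′ to 3′ on the gene's own strand. Capitals mark the SMAD core CAGAC and the PU.1 core GAGGAAG, searched on both strands; PU.1 is the factor that directs myeloid genes. Tgfbr1 (chr4:47352972-47353221, plus strand) and Smad3 (chr9:63757995-63758244, minus strand) were lower in border macrophages, and Tgfbr2 (chr9:116175364-116175613, minus strand) and Nrros (chr16:32165595-32165844, minus strand) were higher.
Tgfbr1: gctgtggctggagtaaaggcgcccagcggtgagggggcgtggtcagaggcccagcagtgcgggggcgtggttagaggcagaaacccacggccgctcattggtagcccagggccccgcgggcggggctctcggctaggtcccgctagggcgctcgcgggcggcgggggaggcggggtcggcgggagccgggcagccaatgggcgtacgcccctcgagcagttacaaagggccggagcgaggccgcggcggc
Smad3: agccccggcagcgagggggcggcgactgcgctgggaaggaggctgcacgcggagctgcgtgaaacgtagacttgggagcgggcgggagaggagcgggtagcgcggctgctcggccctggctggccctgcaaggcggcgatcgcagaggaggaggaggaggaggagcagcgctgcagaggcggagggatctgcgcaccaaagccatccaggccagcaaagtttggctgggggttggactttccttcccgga
Tgfbr2: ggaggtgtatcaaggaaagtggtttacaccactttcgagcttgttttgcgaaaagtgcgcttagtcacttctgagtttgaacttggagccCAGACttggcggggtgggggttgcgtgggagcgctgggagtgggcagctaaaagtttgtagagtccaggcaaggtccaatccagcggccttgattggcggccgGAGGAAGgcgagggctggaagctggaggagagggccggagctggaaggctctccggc
Nrros: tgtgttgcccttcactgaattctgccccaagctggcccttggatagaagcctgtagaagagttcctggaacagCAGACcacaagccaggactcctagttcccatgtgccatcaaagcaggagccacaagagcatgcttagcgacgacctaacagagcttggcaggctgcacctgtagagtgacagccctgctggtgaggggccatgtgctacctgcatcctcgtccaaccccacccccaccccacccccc
The stretches before Tgfbr1 and Smad3 were 74.8% and 69.2% G or C, held 2 GC boxes each (GGGCGG on either strand), and held neither of the capitalised motifs. The stretches before Tgfbr2 and Nrros were 58.4% G or C each and held no GC box. Tgfbr2 held 1 CAGAC and 1 GAGGAAG, and Nrros held 1 CAGAC. The stretch before Tgfb1, matched too but not shown, was 75.2% G or C. It held 5 GC boxes and neither of the capitalised motifs, and the levels of Tgfb1 in border macrophages and microglia overlapped, as described further on. Among 32851 promoter stretches of that length the median was 52.4% G or C, 42.2% held CAGAC, 10.6% held GAGGAAG and 32.7% held a GC box. The full palindrome GTCTAGAC was in 0.167% of them and in none of the 4 shown. A second RefSeq start of Tgfbr1 (chr4:47385966-47386215) held 1 CAGAC and 1 GAGGAAG. These matches are letters in a window and were not tested against binding or expression.

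The ligand gene Tgfb1 (chr7:25687002-25705077, mm10) was measured in every myeloid class. Apoe-high cells had 58.2 and 62.5 CPM in the Hevin libraries. Border macrophages had 98.1 and 92.0 CPM in Hevin libraries, against 96.8 and 104 CPM in mCherry libraries. Microglia had 79.2 and 86.8 CPM in Hevin libraries, against 90.7 and 100.5 CPM in mCherry libraries, so the Apoe-high cells lay below both other classes. Means over 4 libraries ran in the order border macrophages (97.6 ± 4.75 CPM, SD), microglia (89.3 ± 8.84), monocyte and MHC class II cells (76.0 ± 10.9), endothelial cells (34.4 ± 5.11) and astrocytes (16.2 ± 13.2). The first 3 classes overlapped with their neighbours, and so did the last pair, while endothelial cells lay below the first 3.

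Nrros (chr16:32142785-32165594), the anchor of latent TGF-beta 1, was highest in border macrophages. Apoe-high cells had 180.3 and 185 CPM in the Hevin libraries. Border macrophages had 355 and 368 CPM in Hevin libraries, against 354 and 368 CPM in mCherry libraries. Microglia had 166 and 192 CPM in Hevin libraries, against 179 and 195 CPM in mCherry libraries, a range that takes in the Apoe-high cells. Monocyte and MHC class II cells stood between, at 262 ± 24.8 CPM (SD, n = 4), clear of border macrophages above and of microglia below. Endothelial cells had 43.8 ± 15.3 CPM and astrocytes 56.1 ± 23.5 CPM (SD, n = 4 each), which overlapped.

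The type 1 receptor gene Tgfbr1 (chr4:47353222-47414931) marked microglia most. It had 675 and 803 CPM in Apoe-high cells of the Hevin libraries. Border macrophages had 244 and 214 CPM in Hevin libraries, against 266 and 252 CPM in mCherry libraries. Microglia had 899 and 1089.7 CPM in Hevin libraries, against 1082 and 1207 CPM in mCherry libraries, above the Apoe-high cells of both libraries. Monocyte and MHC class II cells (242 ± 36.4 CPM), astrocytes (189 ± 39.7) and endothelial cells (146 ± 32.1; SD, n = 4 each) came last, each overlapping with its neighbour in the order, as did border macrophages with the monocyte class.

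The type 2 receptor gene Tgfbr2 (chr9:116084293-116175360) had another order. Apoe-high cells of the Hevin libraries had 315 and 357 CPM. Border macrophages had 437 and 473 CPM in Hevin libraries, against 471 and 503 CPM in mCherry libraries. Microglia had 249.9 and 269 CPM in Hevin libraries, against 257 and 297 CPM in mCherry libraries, and overlapped with endothelial cells at 279.7 ± 9.58 CPM (SD, n = 4). The lowest levels were in monocyte and MHC class II cells, at 104 ± 7.42 CPM, and astrocytes, at 78.4 ± 24.9 CPM (SD, n = 4 each). So the class with the highest Tgfbr1 was not the class with the highest Tgfbr2.

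The signal carriers split. Smad3 (chr9:63646767-63757994) had 28.5 and 32.1 CPM in Apoe-high cells of the Hevin libraries. Border macrophages had 22.4 and 21.8 CPM in Hevin libraries, against 27.9 and 21.9 CPM in mCherry libraries. Microglia had 43.2 and 58.8 CPM in Hevin libraries, against 63.1 and 71.8 CPM in mCherry libraries, so they lay above the other myeloid classes in all 4 libraries. Smad2 (chr18:76241580-76310963) and Smad4 (chr18:73639009-73703780) were flatter across these classes. Smad2 had 28.8 and 32.9 CPM in Apoe-high cells of the Hevin libraries, and averaged 38.7 ± 3.39 CPM in border macrophages and 36.1 ± 1.23 CPM in microglia (SD, n = 4 each). Smad4 had 28.5 and 33.4 CPM in Apoe-high cells of the Hevin libraries, and averaged 45.2 ± 2.59 CPM in border macrophages and 36.5 ± 2.86 CPM in microglia (SD, n = 4 each). The highest Smad4 mean was in endothelial cells, at 54.4 ± 9.39 CPM (SD, n = 4), which overlapped with border macrophages. A processed pseudogene overlaps Smad4 on the other strand and is not among the listed genes, and whether the counting used strand is not given in the sources used here.

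Smad7 (chr18:75367529-75395935), the inhibitor that the pathway itself induces, separated the macrophage classes most. It had 24.4 and 27.6 CPM in Apoe-high cells of the Hevin libraries. Border macrophages had 6.68 and 8.33 CPM in Hevin libraries, against 12.04 and 8.91 CPM in mCherry libraries. Microglia had 42.5 and 53.7 CPM in Hevin libraries, against 55.2 and 58.2 CPM in mCherry libraries, so the 3 classes did not overlap. Endothelial cells had 55.2 ± 9.54 CPM (SD, n = 4) and overlapped with microglia, and border macrophages had the lowest mean of the classes compared.

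**Figure D1:**
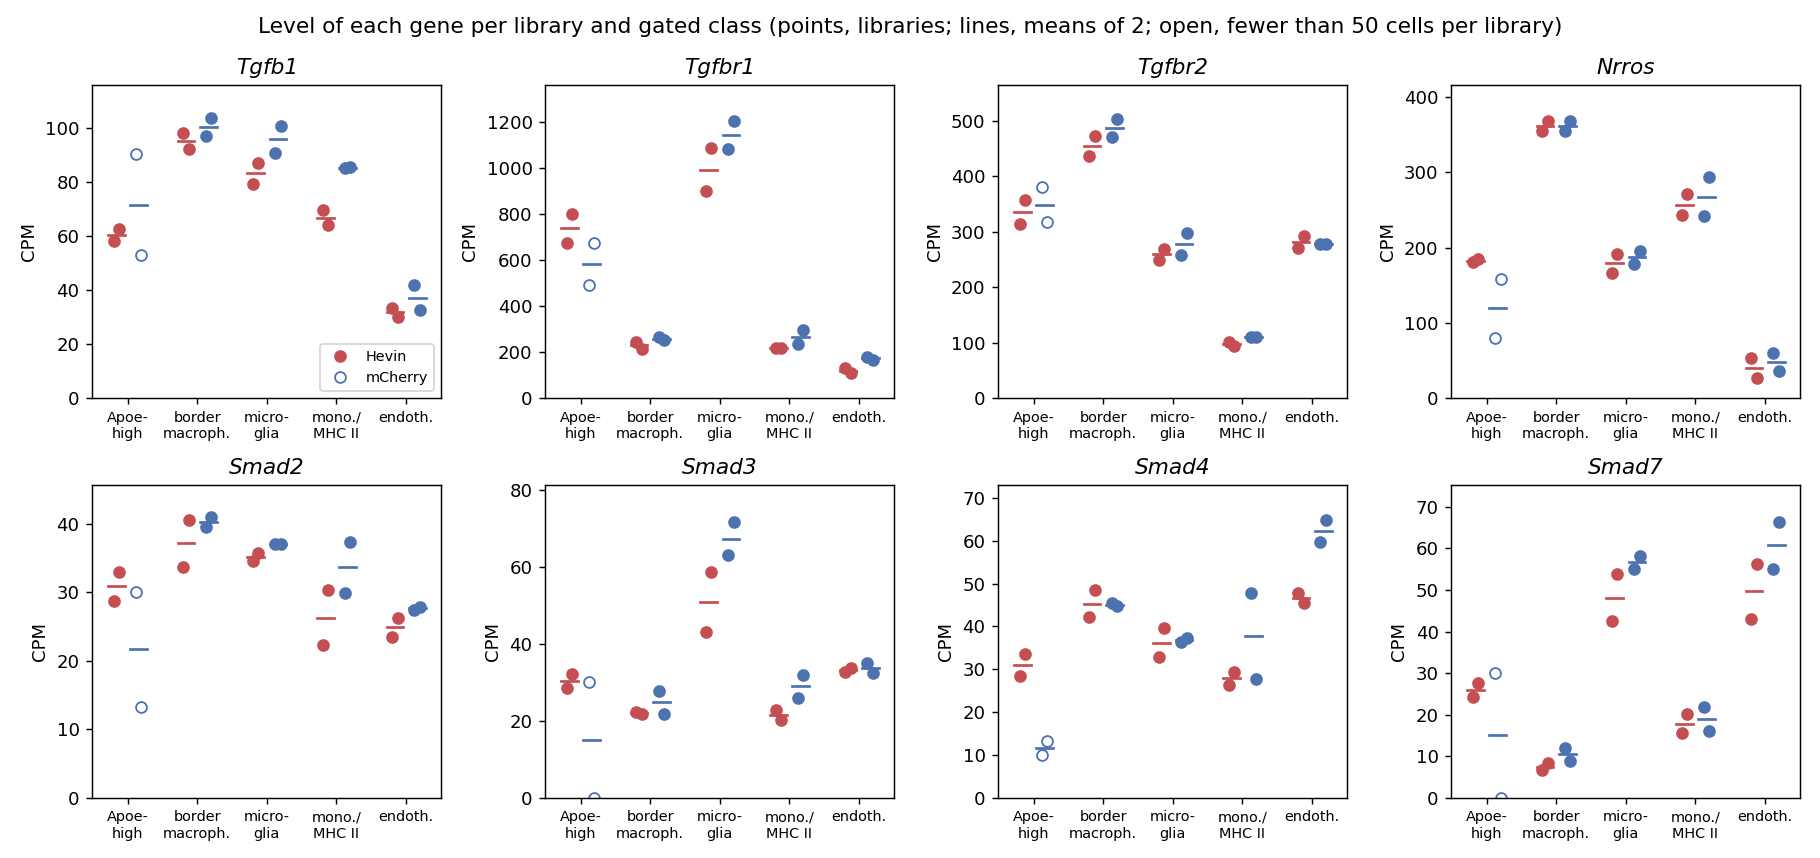
Level of each of the 8 genes (CPM, vertical axes from 0) in 5 gated classes, with Hevin libraries in red left of mCherry libraries in blue; points are libraries, short lines the mean of 2, and open points classes with fewer than 50 cells per library. Tgfbr1 and Smad3 are highest in microglia, Tgfbr2 and Nrros in border macrophages, and Smad7 is lowest in border macrophages, leaving the open points aside.

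Apoe-high cells carried less of the type 1 receptor, of its carrier Smad3 and of Smad7 than microglia of the same libraries, and more of the type 2 receptor. This was tested in the 2 Hevin libraries with the library as a block (edgeR's quasi-likelihood test, Benjamini-Hochberg adjustment over all genes tested). With only 2 libraries, the small p-values rest largely on the spread that edgeR shares across genes. Smad7 fell by 0.79 on the log2 scale (SE 0.07, adjusted p = 1.8e-07) and Smad3 fell by 0.64 (SE 0.08, adjusted p = 3.5e-06). Tgfb1 fell by 0.36 (SE 0.05, adjusted p = 4.7e-05) and Tgfbr1 fell by 0.33 (SE 0.04, adjusted p = 7.3e-06). Tgfbr2 rose by 0.47 (SE 0.04, adjusted p = 2.9e-07). The remaining genes, Nrros (0.13, adjusted p = 0.0604), Smad4 (-0.12, adjusted p = 0.178) and Smad2 (-0.09, adjusted p = 0.357) did not pass. Nrros passed with the mitochondrial limit of 5% (adjusted p = 0.0428), without the 5% of cells with most UMIs (0.0343) and with the stricter gate (0.0317), and was at -0.051 without Hevin replicate 1, where no test is possible. With library totals Smad4 (-0.22, adjusted p = 0.0132) and Smad2 (-0.19, adjusted p = 0.0402) passed. Thus 5 of the 8 passed, against 40.3% of the 15622 genes tested (21.6% higher and 18.7% lower). The classes did not overlap in 6 of the 8 (all but Nrros and Smad4), beside 60.5% of all genes. Of these calls 53.6% were higher, and 38.4% with library totals in place of TMM, the trimmed-mean scaling. In mCherry libraries the Apoe-high gate held too few cells for a test: 49 and 51 UMIs of Tgfbr1 gave 491 CPM (95% exact Poisson interval 364 to 650, counting error only) and 674 CPM (502 to 886), and Smad3 and Smad7 had 3 UMIs each in replicate 1 and 0 in replicate 2.

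Border macrophages also had less Smad7, Tgfbr1 and Smad3 than microglia, and they had more Nrros and Tgfbr2. Over all 4 libraries, with the library as a block, Smad7 fell by 2.67 on the log2 scale (SE 0.10, edgeR adjusted p = 1.2e-09), Tgfbr1 fell by 2.29 (SE 0.07, adjusted p = 3.2e-10) and Smad3 fell by 1.48 (SE 0.10, adjusted p = 1.7e-07). Nrros rose by 0.83 (SE 0.05, adjusted p = 4.4e-08) and Tgfbr2 rose by 0.65 (SE 0.04, adjusted p = 1.3e-07). Tgfb1 (-0.03, adjusted p = 0.669), Smad2 (-0.06, adjusted p = 0.490) and Smad4 (0.15, adjusted p = 0.0557) did not pass. Smad4 passed with RLE size factors, another scaling (0.18, edgeR adjusted p = 0.0222), and with library totals (0.31, edgeR adjusted p = 0.00094). The background is high: 56.9% of 15131 genes passed, 27.3% higher and 29.7% lower, so 5 of 8 is near the share of all genes. The classes did not overlap in any member but Tgfb1 and Smad2, beside 49.2% of all genes. Of the calls 47.9% were higher, and 62.4% with library totals, which moved the median of all genes to 0.12, against -0.04 with TMM.

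Apoe-high cells set against border macrophages of the 2 Hevin libraries differed in 7 of the 8 genes, against 38.3% of 14151 genes tested (19.3% higher and 19% lower). All 8 members did not overlap, beside 67.5% of genes. Of those calls 50.5% were higher, and 25.6% with library totals, where the median of all genes was -0.21, against 0.01 with TMM. Smad7 rose by 2.01 (SE 0.18, edgeR adjusted p = 1.3e-07), Tgfbr1 rose by 1.91 (SE 0.09, adjusted p = 7.3e-11) and Smad3 rose by 0.68 (SE 0.13, adjusted p = 0.0006). Nrros fell by 0.76 (SE 0.07, adjusted p = 4.6e-07) and Tgfb1 fell by 0.43 (SE 0.09, adjusted p = 0.00075). Smad4 fell by 0.32 (adjusted p = 0.0268) and Tgfbr2 fell by 0.22 (adjusted p = 0.027). With DESeq2, Tgfb1 (adjusted p = 0.0716), Tgfbr2 (0.254) and Smad4 (0.406) did not pass. With no filter on low counts Tgfbr2 (adjusted p = 0.130) and Smad4 (0.0907) did not pass either, nor did Smad4 without the 5% of cells with most UMIs (0.0596) or with the stricter gate (0.053). This comparison was added after the data had been seen, and it shares its Apoe-high cells and its border macrophages with the comparisons above.

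**Figure D2:**
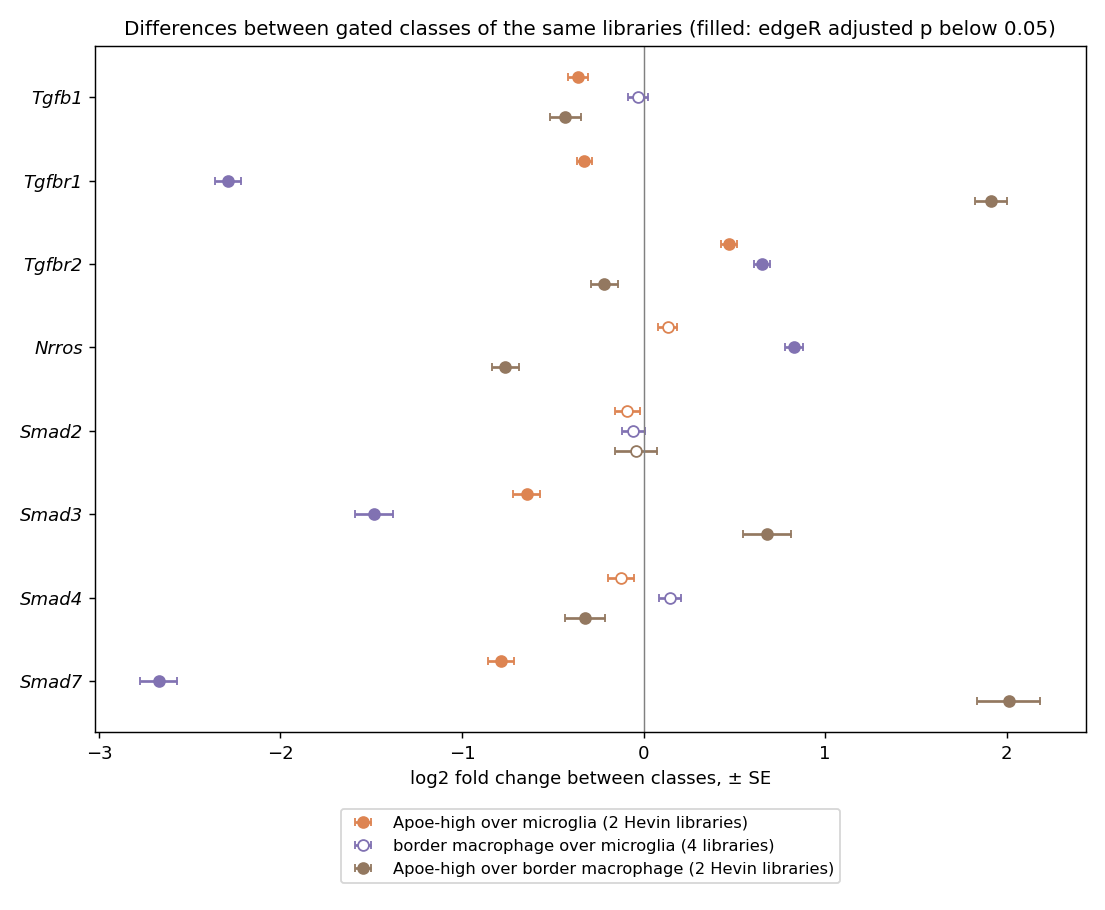
Log2 fold change of each gene (horizontal axis, ± SE) between gated classes of the same libraries; filled points passed an adjusted p of 0.05. In Apoe-high cells Tgfbr1, Smad3 and Smad7 are below microglia and above border macrophages, and Tgfbr2 is above microglia and below border macrophages.

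RNA of one class can appear among the UMIs of another, so each level was set beside the summed microglial markers of the same class. In border macrophages those markers stood at 22.2% and 18.6% of the microglial level in Hevin libraries, against 26.5% and 22.9% in mCherry libraries. Tgfbr1 there stood at 27.1% and 19.6% of its microglial level in Hevin libraries, against 24.5% and 20.9% in mCherry libraries, close to the markers. Border macrophage Smad7 stood at 15.7% and 15.5% in Hevin libraries, against 21.8% and 15.3% in mCherry libraries, also near them, and the part of microglial RNA in these levels was not tested. Smad3 there was higher, at 51.8% and 37.1% in Hevin libraries, against 44.3% and 30.5% in mCherry libraries. In Apoe-high cells of the Hevin libraries the markers stood at 34.8% and 32.9%, while Tgfbr1 stood at 75.1% and 73.7%, Smad3 at 65.9% and 54.6% and Smad7 at 57.3% and 51.4%. Microglia needed a minimum of these markers, which lowers the marker share of the other classes. Apoe-high cells could also have no Sall1, which is among the markers. Tgfbr1, Smad3 and Smad7 were not gated, so their higher shares do not measure microglial RNA in Apoe-high cells, which was not tested. In endothelial cells the markers stood at 9.15% and 5.73% in Hevin libraries, against 15.3% and 10.8% in mCherry libraries. Endothelial Tgfbr1 was at 14.4% and 10.1% in Hevin libraries, against 16.6% and 13.7% in mCherry libraries, while endothelial Smad7 was at 101% and 105% in Hevin libraries, against 99.96% and 114% in mCherry libraries.

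The share of cells with at least 1 UMI was also taken, after each cell was thinned to 1000 UMIs. Tgfbr1 was seen in 47.5% and 53.3% of Apoe-high cells of the Hevin libraries. Border macrophages had 21.8% and 19.4% in Hevin libraries, against 22.0% and 21.4% in mCherry libraries. Microglia had 55.8% and 64.3% in Hevin libraries (95% Wilson intervals 54.6 to 57.1% and 63.1 to 65.6%), against 63.7% and 67.0% in mCherry libraries. Endothelial cells had 10.1% and 11.5% in Hevin libraries, against 19.1% and 17.1% in mCherry libraries. Without thinning, Tgfbr1 was in 79.5% and 94.1% of microglia in Hevin libraries at median depths of 2081 and 3300 UMIs, against 94.1% and 97.3% in mCherry libraries at 3271 and 3955 UMIs. Nrros was in 28.0% and 30.1% of thinned border macrophages in Hevin libraries, against 29.7% and 26.7% in mCherry libraries. Endothelial cells, which should lack Nrros, had 6.99% and 3.38% in Hevin libraries, against 4.10% and 2.86% in mCherry libraries. Thinning left out 336 cells of Hevin libraries and 0 of mCherry libraries.

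Because Apoe-high cells were gated at a bound, the 8 genes were also followed across the range of Apoe, over microglia-gated, Apoe-high and ungated cells together. In the Hevin libraries Tgfbr1, Smad3 and Smad7 lay lower above 100 UMIs of Apoe per 10000 than at 50 to 100, while Tgfb1 of Hevin replicate 2 was already at 63.6 CPM at 50 to 100, against 89.3 CPM at 25 to 50. Tgfbr1 had 873 and 929 CPM at 50 to 100 Apoe UMIs in Hevin libraries, against 881 and 983 CPM in mCherry libraries. At 100 to 200 it had 683 and 791 CPM in Hevin libraries, against 678 and 582 CPM in mCherry libraries, and it stayed between 670.5 and 829 CPM in the 3 higher ranges of the Hevin libraries. The mCherry libraries, with 115 and 61 cells in that range, also lay below their own level at lower Apoe. Smad7 had 47.0 and 52.8 CPM at 50 to 100 in Hevin libraries, against 45.9 and 34.7 CPM in mCherry libraries. At 100 to 200 it had 27.0 and 31.2 CPM in Hevin libraries, against 39.8 and 33.1 CPM in mCherry libraries. Tgfbr2 went the other way. It had 249.6 and 238 CPM at 50 to 100 in Hevin libraries, against 252 and 297 CPM in mCherry libraries. At 100 to 200 it had 280.3 and 315 CPM in Hevin libraries, against 335 and 371 CPM in mCherry libraries. At 10 to 25 it had 271 and 277 CPM in Hevin libraries, against 260 and 286 CPM in mCherry libraries. Hevin replicate 1 was thus near that level again at 100 to 200. Smad3 and Tgfbr1 were already lower at 50 to 100 UMIs of Apoe than at 10 to 25 in each library. Smad3 had 51.6 and 57.3 CPM at 10 to 25 in Hevin libraries, against 62.8 and 68.6 CPM in mCherry libraries. At 50 to 100 it had 39.5 and 46.5 CPM in Hevin libraries, against 50.9 and 55.9 CPM in mCherry libraries. Tgfbr1 had 932 and 1107 CPM at 10 to 25 in Hevin libraries, against 1074 and 1184 CPM in mCherry libraries. Smad7 had 46.2 and 53.1 CPM at 10 to 25 in Hevin libraries, near its level at 50 to 100. In mCherry libraries it had 52.3 and 60.2 CPM at 10 to 25, above its level at 50 to 100. The microglial markers were lower in the same step: their median was 119.5 and 129 UMIs per 10000 in Hevin libraries, against 131 and 130.4 in mCherry libraries, at 50 to 100, and 45.1 and 44.8 in Hevin libraries, against 97.1 and 98.6 in mCherry libraries, at 100 to 200. These are levels without a test, and the markers' part in them was not tested.

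**Figure D3:**
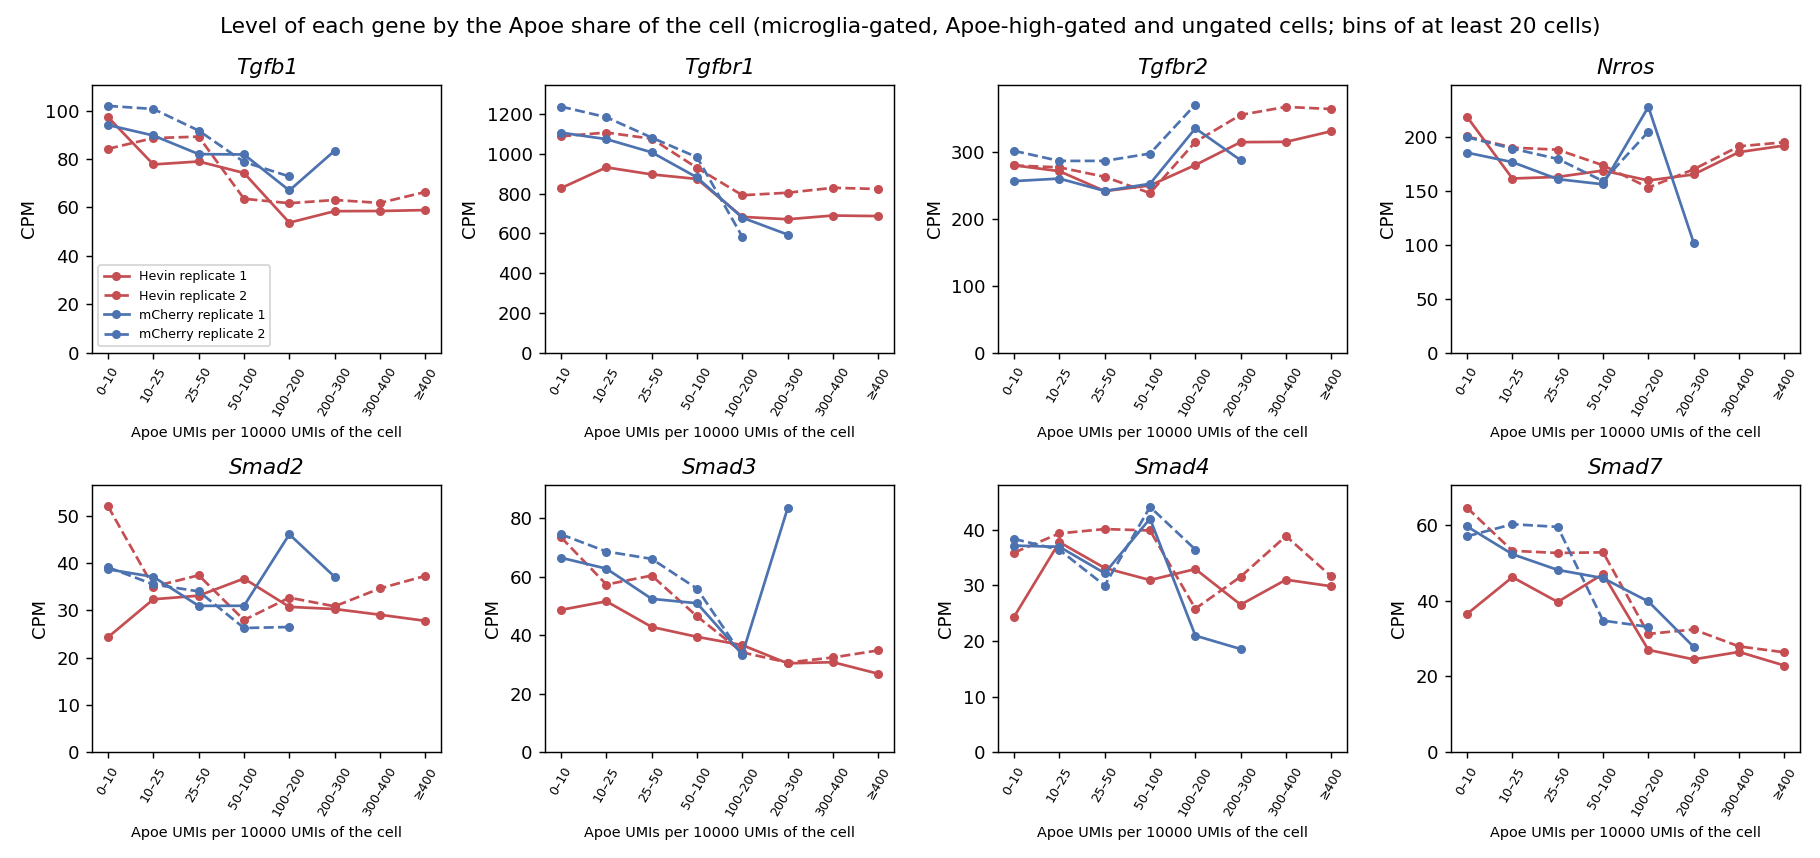
Level of each gene (CPM, from 0) against the Apoe UMIs per 10000 UMIs of the cell, in ranges of unequal width that hold at least 20 cells; lines are libraries. In the Hevin libraries Tgfbr1, Smad3 and Smad7 lie lower and Tgfbr2 higher from 100 Apoe UMIs on than at 50 to 100. Tgfb1 of Hevin replicate 2 is lower from 50 on, and the last mCherry point rests on 23 cells.

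Summed over all kept cells, the Hevin libraries held less Smad3 and less Smad7. Smad3 had 33.3 and 42.2 CPM in Hevin libraries, against 57.1 and 63.7 CPM in mCherry libraries. It fell by 0.56 on the log2 scale (SE 0.12, edgeR adjusted p = 0.0251). Smad7 had 29.6 and 38.2 CPM in Hevin libraries, against 49.7 and 52.5 CPM in mCherry libraries. It fell by 0.48 (SE 0.11, edgeR adjusted p = 0.0417). Tgfb1 had 65.7 and 73.5 CPM in Hevin libraries, against 87.0 and 96.0 CPM in mCherry libraries (log2 fold change -0.28, SE 0.08, edgeR adjusted p = 0.0882). Tgfbr1 had 686 and 837 CPM in Hevin libraries, against 930.2 and 1038 CPM in mCherry libraries (log2 fold change -0.26, SE 0.12, edgeR adjusted p = 0.261). Tgfbr2 had 293 and 317 CPM in Hevin libraries, against 269.7 and 308 CPM in mCherry libraries (log2 fold change 0.19, edgeR adjusted p = 0.304). Nrros (0.07), Smad2 (-0.04) and Smad4 (-0.03) had log2 fold changes within their errors of 0. In 6 of the 8 genes the groups did not overlap, beside 57.5% of all genes, and Tgfbr2 and Nrros overlapped.

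That count of 2 of 8 stands beside 11.1% of the 19119 genes tested (6.85% higher and 4.3% lower). Of the calls 61.4% were higher, and 38.9% with library totals, where the median of all genes was -0.11, against 0.00 with TMM. A sum over all cells cannot tell fewer cells of a type from less RNA per cell, and the makeup differed as given above. The 8 microglial markers summed to 6894 and 8399 CPM in Hevin libraries, against 13373 and 13751 CPM in mCherry libraries, and the 6 border macrophage markers to 2953 and 2801 CPM in Hevin libraries, against 1809.7 and 1879.6 CPM in mCherry libraries. Cells gated as border macrophages made up 5.61% and 5.96% of Hevin libraries, against 6.74% and 7.33% of mCherry libraries. The border macrophage markers summed to 3059 and 3022 CPM in the Apoe-high cells of the Hevin libraries. The 6 endothelial markers summed to 379 and 424 CPM in Hevin libraries, against 579.9 and 541 CPM in mCherry libraries. Without the Apoe-high cells Smad3 was at -0.49 (edgeR adjusted p = 0.103) and Smad7 at -0.38 (adjusted p = 0.182), and 622 genes passed in place of 2131. Without the Apoe-high and ungated cells they were at -0.47 (adjusted p = 0.234) and -0.34 (adjusted p = 0.337), and 213 genes passed. Smad7 also did not pass without Hevin replicate 1 (-0.31, adjusted p = 0.066). Tgfb1 passed when library totals were used (-0.40, adjusted p = 0.0296), with no filter on low counts (-0.28, adjusted p = 0.0499), without Hevin replicate 2 (-0.35, adjusted p = 0.042) and without mCherry replicate 1 (-0.36, adjusted p = 0.0404).

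Within microglia-gated cells none of the 8 genes passed between Hevin and mCherry libraries. No gene of the 17145 tested did (0%) with edgeR, although 960 had an unadjusted p below 0.05 and DESeq2 called 118, none of them a member; with 1 library left out, edgeR called between 9 and 88 genes, none of them a member. The largest difference among the members was in Smad3, at -0.35 (SE 0.15, edgeR adjusted p = 0.897), whose Hevin libraries lay below both mCherry libraries. Tgfbr1 (-0.15, SE 0.12), Tgfb1 (-0.15, SE 0.09) and Smad7 (-0.18, SE 0.12) were lower by similar amounts, and Tgfbr2, Nrros, Smad2 and Smad4 lay within 0.05 of 0. In 4 of the 8 genes the libraries of the groups did not overlap, beside 36.6% of all genes. Apoe stood at 4749 and 3316 CPM in microglia-gated cells of Hevin libraries, against 1565 and 1317 CPM in those of mCherry libraries, and Ms4a7 at 103 and 60.9 CPM in Hevin libraries, against 14.4 and 9.44 CPM in mCherry libraries. The part of those cells in the differences was not tested. In all 8 genes Hevin replicate 1, with the shallowest cells, was the lowest of the 4 libraries.

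Border macrophages and endothelial cells gave no call for the 8 genes either. In border macrophages 47 of 12168 genes passed (0.386%; 0.173% higher and 0.214% lower; 44.7% of the calls higher, and 34.5% with library totals). Smad7 had the largest difference there, at -0.44 (SE 0.28, edgeR adjusted p = 0.806). As a percentage of its level in microglia, Smad7 stood near the microglial markers in these cells. The libraries of the groups did not overlap in 2 of the 8 genes (Tgfbr1 and Smad7), beside 38.2% of all genes. With 1 library left out, 17 to 249 genes passed in border macrophages and 86 to 257 in endothelial cells. With all libraries, in endothelial cells 4 of 10723 genes passed (0.0373%; 0.028% higher and 0.00933% lower; 75% of the calls higher, and 45.5% with library totals). Endothelial Tgfbr1 had 129 and 110.0 CPM in Hevin libraries, against 179 and 166 CPM in mCherry libraries, a log2 fold change of -0.48 (SE 0.15, edgeR adjusted p = 0.620). The groups did not overlap in Tgfbr1, Smad2 and Smad4, beside 34.6% of all genes. Without Hevin replicate 1, the endothelial value of Tgfbr1 was -0.62 (adjusted p = 0.0285). The endothelial cells' microglial markers moved with it, at 1216 and 827 CPM in Hevin libraries, against 2394 and 1744 CPM in mCherry libraries, and their part in the difference was not tested. The Hevin effect in border macrophages minus that in microglia, tested as an interaction, passed for 21 of 15131 genes (0.139%; 0.00661% higher and 0.132% lower) and for none of the 8. It lay between -0.27 (Smad7, SE 0.25) and 0.20 (Smad3, SE 0.22).

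**Figure D4:**
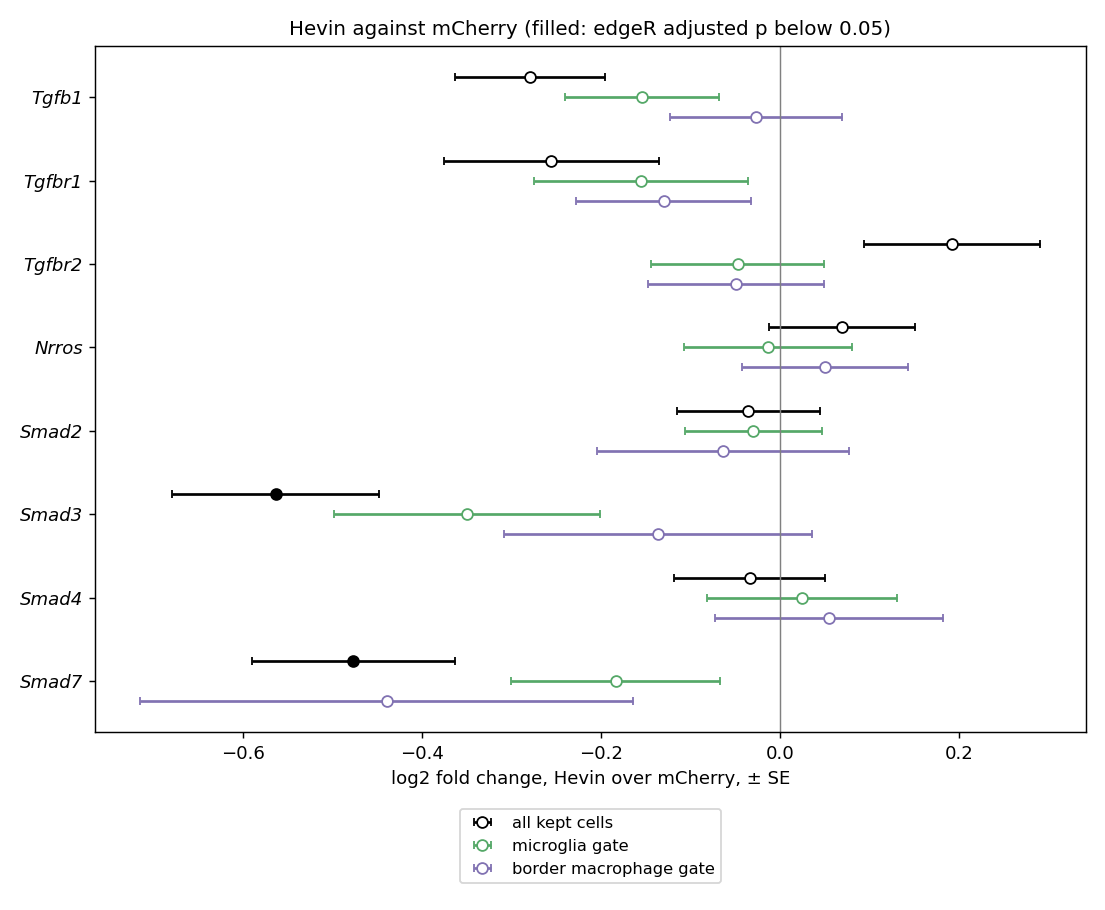
Log2 fold change of each gene, Hevin over mCherry (horizontal axis, ± SE), over all kept cells and within the microglia and border macrophage gates; filled points passed an adjusted p of 0.05. Smad3 and Smad7 over all kept cells are the filled points, and within microglia Smad3 at -0.35 is the largest difference.

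The rest of the pathway was followed through lists of genes that were chosen with earlier results of these data known. Their counts are therefore descriptions and no independent check. Over all kept cells they stand beside 11.1% of all genes called (6.85% higher and 4.3% lower). Over all kept cells none of 9 ligand genes and none of 11 other SMADs and cofactors passed between Hevin and mCherry libraries. Of 13 genes of latent storage and activation 2 rose and none fell. Mmp14, a membrane protease that can free latent TGF-beta, had 86.3 ± 4.57 CPM in Hevin libraries and 17.2 ± 0.744 CPM in mCherry libraries (SD, n = 2 each) and rose by 2.44 (edgeR adjusted p = 2e-05). Thbs1, which encodes the activator thrombospondin 1 and is named after its value was seen, rose by 1.56. Of 11 other receptors 2 fell and none rose: the BMP receptor gene Bmpr1a fell by 0.94 and the co-receptor gene Eng (endoglin) fell by 0.86. Of 12 brakes on the pathway 3 rose and 1 fell. Nedd4l, a ubiquitin ligase for SMAD proteins, rose by 0.82, Pmepa1, whose product holds back the receptor-activated SMADs, rose by 0.78, the repressor gene Tgif1 rose by 0.59, and its relative Tgif2 fell by 0.67. Median log2 fold changes of these 5 lists lay between -0.17 and 0.10, against 0.00 over all genes.

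Target genes did not go one way, again beside 11.1% of all genes called. Of 14 immediate targets known across cell types 3 rose and 1 fell over all kept cells (median -0.03): the matrix gene Tgfbi rose by 0.97, Pmepa1 and Id2 (by 0.43) rose with it, and Id3 fell by 0.38. Of 17 tested microglial genes known to need the pathway 10 fell and none rose, with a median of -0.49. The sugar transporter gene Slc2a5 fell by 1.31, the purine receptor gene P2ry12 fell by 0.98, the lectin gene Siglech fell by 0.86 and Tmem119 fell by 0.69. Of 17 tested genes known to be raised in microglia that lack the pathway 15 rose and 1 fell, with a median of 1.19. The receptor kinase gene Axl rose by 3.61, Ms4a7 rose by 3.14, Apoe rose by 3.02 and the oxidase gene Cybb rose by 2.89, while the lipase gene Lpl, named after its value was seen, fell by 0.52. Several genes of the last 2 lists, among them P2ry12, Tmem119, Apoe and Ms4a7, also set the gates, and the makeup of the cells differed between the groups, so their counts over all cells carry that difference too. In microglia-gated cells none of the genes in the 8 lists passed, as none of all genes did. The list of genes raised without the pathway had a median of 0.75 there, against -0.01 over all genes, and its members Axl (2.17), Ms4a7 (2.81), Cybb (2.76) and Cd52 (0.75) each had an edgeR adjusted p of 0.0662. In endothelial cells the same list had a median of 1.14, against -0.001 over all genes. There 3 of its 15 tested genes rose, and these were the 3 genes called higher in that gate. Microglial genes known to need the pathway had a median of -0.68 in endothelial cells, and none passed. Endothelial Ms4a7 had 95.4 and 51.8 CPM in Hevin libraries, against 14.05 and 9.13 CPM in mCherry libraries. The part of RNA from other cells in these shifts was not tested.

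Set against microglia, Apoe-high cells had calls in each list, beside the 40.3% of all genes that passed. Among the ligand genes the share called was below that. Gate markers and the 8 members were left out of these counts. Of 10 genes of latent storage and activation 2 rose and 4 fell. Mmp14 had 150.4 ± 9.49 CPM in Apoe-high cells and 23.7 ± 1.07 CPM in microglia (SD, n = 2 each) and rose by 2.77, Thbs1 rose by 2.29, the integrin genes Itgb5 and Itgb1 fell by 0.54 and by 0.28, and Ltbp1, a latent TGF-beta binding protein, and Furin fell too. Of 11 other receptors 2 rose and 4 fell: Eng fell by 2.07, Bmpr1a fell by 2.30, the activin receptor gene Acvr2b fell by 0.90 Acvrl1 rose by 0.84, and Acvr1 and Bmpr2 were the others that passed. Of 11 other SMADs and cofactors 4 rose and 3 fell, where the BMP carriers Smad1 and Smad5 fell by 0.55 and by 0.36. Of 6 ligand genes only Bmp2 passed, and rose by 1.18. Of 12 brakes 7 rose and 3 fell: Pmepa1 had 982 ± 164 CPM in Apoe-high cells and 424 ± 62.7 CPM in microglia (SD, n = 2 each) and rose by 1.31, Nedd4l rose by 1.13, Tgif1 rose by 0.74, and Ldlrad4, a relative of Pmepa1, fell by 0.60. Of 13 immediate targets 4 rose and 3 fell, among them Tgfbi, which rose by 2.43, and the cell cycle inhibitor gene Cdkn1a, which fell by 1.11. Of 9 microglial genes known to need the pathway 7 fell and none rose, among them Bin1 and Rhob by 1.05 each and Cx3cr1 by 0.72. Of 14 genes known to be raised without it 12 rose and 1, Lpl, fell, with a median of 1.31. Spp1, which encodes the secreted osteopontin, rose by 3.29, Ms4a6c rose by 3.19, the lysozyme gene Lyz2 rose by 2.81 and Cd52 rose by 1.66. Named after their values were seen were Ltbp1, Furin, Acvr1, Bmpr2, Bmp2 and Lpl. Set against border macrophages instead, beside the 38.3% of all genes that passed, 10 of the 12 brakes rose in Apoe-high cells and 1 fell, with Pmepa1 2.44, Skil 1.65, Ldlrad4 1.30 and Nedd4l 0.96 higher on the log2 scale.

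Border macrophages were set against microglia in the same lists, beside the 56.9% of all genes that passed. The microglial genes known to need the pathway and those raised without it leaned the same way as in Apoe-high cells, and the brakes the other way. Of 12 brakes 1 rose and 7 fell, Ldlrad4 by 1.95, Skil, a SMAD repressor gene, by 1.60, Tgif2 by 1.88 and the ubiquitin ligase gene Smurf1 by 1.00. Of 13 immediate targets 2 rose and 8 fell, with a median of -0.71, and Skil, Ski, Smurf1 and Pmepa1 are on this list and among the brakes. Tgfbi went against most of the targets: it had 707 ± 98.7 CPM in border macrophages and 37.6 ± 6.97 CPM in microglia (SD, n = 4 each) and rose by 4.10. Of 6 ligand genes 2 rose, Bmp2 by 5.74 and Tgfb3, named after its value was seen, by 2.26. Bmp2 was at 36.4 ± 10.1 CPM in border macrophages and 0.628 ± 0.199 CPM in microglia (SD, n = 4 each). Of 10 genes of latent storage and activation 1 rose and 4 fell, where the integrin gene Itgb5 fell by 1.86, its partner Itgav fell by 1.46, and the protease gene Furin rose by 0.47. Of 10 other receptors 3 rose and 4 fell, and of 10 other SMADs and cofactors 4 rose and 4 fell. Of 9 microglial genes known to need the pathway 2 rose and 7 fell, where Cx3cr1 fell by 1.94 and Gas6, which encodes a ligand of the Axl receptor, rose by 2.33. Of 14 genes known to be raised without the pathway 11 rose and 3 fell, the last being Lpl, Itgax and Cd52, named after their values were seen. Between Hevin and mCherry border macrophages, Mmp14 rose by 2.03 (edgeR adjusted p = 0.0047), Pmepa1 rose by 0.84 (adjusted p = 0.0449), and Axl and Cd52 rose by 1.88 and by 1.40 (adjusted p = 0.0012 each). Slc2a5, Sall1 and P2ry12 fell in the same cells, by 1.58, by 1.04 and by 0.68. Their microglial markers summed to 2944 and 2683 CPM in Hevin libraries, against 4152 and 3689 CPM in mCherry libraries, and the part of microglial RNA in those 3 was not tested. Mmp14, Pmepa1 and Cd52 were higher in Apoe-high cells than in microglia, as given above. Apoe-high cells made up 34.9% and 31.0% of kept cells in Hevin libraries, against 0.123% and 0.138% in mCherry libraries. The part of their RNA in the rises in border macrophages was not tested. In the interaction with class, Mmp14 had a larger Hevin effect in border macrophages than in microglia (1.43), past the threshold. Apoe (-1.22), Ms4a7 (-2.67) and Cybb (-2.38) had a smaller one, each past the threshold. The microglial gate bounds Apoe from above and the border macrophage gate does not, so the gates shape the Apoe value. Ms4a7 helps to set the Apoe-high gate, and the part of the gates in these values was not tested.

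Each gene's profile was compared with those of 10021 others over 20 sums, the 4 libraries of 5 classes (microglia, border macrophages, monocyte and MHC class II cells, endothelial cells and astrocytes). Sums of 1 library share its depth and its free RNA, so the correlations are descriptions. Among the profiles most like Tgfbr1 were those of Parvg and Arsb (r = 0.97 each), and those most like Nrros were Ptafr (0.98), Dennd4b (0.97) and Ppp1r21 (0.97). Tgfb1 was followed by Akap13, Sh2b3 and Tram1 (0.96 each), and Tgfbr2 by Sh3glb1 (0.97), Tbc1d14 (0.95) and Frmd4b (0.94). Smad3 was followed by Rapgef5 (0.94), Fmnl3 (0.93) and Tra2b (0.92), and Smad2 by Apobec3 (0.91), Slc38a7 (0.88) and Tbc1d22a (0.87). The likeness was weakest for Smad7, with Ciao2b, Lhfpl2 and Cdca7 (0.86 each), and for Smad4, with Unkl (0.83), Sdhaf1 (0.82) and Deaf1 (0.81). Among the members the closest pair was Tgfb1 and Nrros (0.83), followed by Tgfb1 with Smad2 and Tgfbr1 with Smad3 (0.72 each). The receptor pair Tgfbr1 and Tgfbr2 stood at 0.22, and Nrros and Smad7 ran most against each other (-0.46).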

How the data were processed

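The authors deposited, for each of 4 libraries, a matrix of whole-number UMI counts per gene and barcode (genome build mm10, per the submitters' processing notes). Which aligner, counting program and annotation were used, whether strand was used and how cells were called is not given in the labels or files. The members and lists were chosen with earlier results of these data known, and the gate bounds after the marker distributions had been seen. Barcodes with at least 500 UMIs, 300 genes and at most 10% mitochondrial UMIs were kept, and no doublet caller was run; cells in 2 gates were left out of the classes, which leaves doublets within a class. Counts were summed per class and library and tested with edgeR 4.0.16 in R 4.3.3 (quasi-likelihood, TMM scaling, its own low-count filter, Benjamini-Hochberg adjustment over all genes tested, threshold 0.05). Classes were compared with the library as a block. Printed CPM are unscaled, and fold changes are TMM-scaled log2 values. The SE is the log2 fold change divided by the root of F. The smallest p an exact permutation test of 2 against 2 can give is 0.333, so none was used. DESeq2 1.42.0, other scalings, filters, depths, gates and left-out libraries were alternatives. Replicates differed beyond counting noise (chi-square per gene 25.4 in Hevin and 20.6 in mCherry). Shares of cells were computed in Python 3.11.15 after thinning to 1000 UMIs. Intervals cover counting error only. Of other genes in the lists, at most 4 per list and comparison were named, those with the smallest unadjusted p and at least 10 CPM, with exceptions stated; 1 gene that this rule names is not reported here. Likeness is Pearson's r of log2(CPM + 1). Gene coordinates are from GENCODE M21 and promoters from RefSeq. The fits were tested on simulated data.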

Additional observations from a re-analysis of the deposited data

How the results depend on the processing

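Over all kept cells 2131 genes and 2 members passed; this became 1323 and 1 with at least 3000 UMIs per cell, and 1 member with a mitochondrial share of at most 5%. Without Apoe-high cells it became 622 and 0, and without Apoe-high and ungated cells 213 and 0, both chosen after seeing the data. Leaving out each library gave 1 (without Hevin replicate 1) to 3 members. In microglia 0 genes passed, against 118 with DESeq2, 2 with RLE size factors, 302 with no filter on low counts, 8 with at least 3000 UMIs, 11 with the mitochondrial limit, 10 with the stricter gate and 9 to 88 with a library left out; 1 member, Smad3, passed with no filter (adjusted p = 0.009). In border macrophages 47 became 249 with no filter, 27 with the stricter gate and 17 to 249 with a library left out. In endothelial cells 4 became 15 with DESeq2, 11 with library totals, 191 with no filter, 9 with at least 3000 UMIs, 21 with the mitochondrial limit, 16 without the 5% of cells with most UMIs, and 86 to 257 with a library left out (0 to 1 members). DESeq2 gave 3175 genes in place of 6293 for Apoe-high cells against microglia, and 2484 genes and 4 members in place of 5424 and 7 against border macrophages. The interaction's 21 genes became 32 with DESeq2, 141 with no filter, 41 without the 5% of cells with most UMIs, 33 with the stricter gate and 32 to 138 with a library left out. The cause of these shifts was not tested.

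The labels do not say that replicate numbers pair the libraries, and only 2 pairs exist, with correlations of same-numbered deviations of 0.49, 0.52, 0.28 and 0.25 over all cells, microglia, border macrophages and endothelial cells. With a replicate block, 4533 genes and 4 members passed over all cells (Tgfb1 and Tgfbr1 added), 398 genes and 1 member (Smad3, adjusted p = 0.0223) in microglia, 360 in border macrophages and 125 in endothelial cells.

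The 5 members called between border macrophages and microglia passed in all 12 alternatives, and the 5 between Apoe-high cells and microglia in all 8 that allow a test; leaving out a Hevin library leaves no test there. Over all cells Tgfb1 also passed with library totals (-0.40), with no filter (-0.28), without Hevin replicate 2 and without mCherry replicate 1.

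The log2 fold changes of some members turned direction, none with a call. Over all cells, Tgfbr2 was -0.051 without Apoe-high and ungated cells and Nrros was -0.047 with library totals. With a library left out, Smad2 ran from -0.12 to 0.046 and Smad4 ran from -0.14 to 0.066. In microglia, Nrros was 0.016 with the stricter gate, Smad2 was 0.026 with the stricter gate and Smad4 was -0.023 with library totals. With a library left out, Tgfbr2 ran from -0.15 to 0.067, Nrros ran from -0.11 to 0.087 and Smad4 ran from -0.11 to 0.15. In border macrophages, Tgfb1 was 0.014 with at least 3000 UMIs, Smad2 was 0.010 with the stricter gate and Smad4 was -0.011 without the deepest cells. With a library left out, Tgfb1 ran from -0.086 to 0.030, Tgfbr2 ran from -0.11 to 0.011, Smad2 ran from -0.20 to 0.067, Smad3 ran from -0.28 to 0.048 and Smad4 ran from -0.044 to 0.15. In endothelial cells, Tgfb1 was 0.018 without the deepest cells, Nrros was 0.11 without the deepest cells, Smad2 was 0.74 without the deepest cells and Smad3 was -0.028 with library totals. With a library left out, Tgfb1 ran from -0.35 to 0.021, Nrros ran from -0.87 to 0.19 and Smad3 ran from -0.032 to 0.091. In Apoe-high cells against border macrophages, Smad2 was 0.014 with no filter. In border macrophages against microglia, Tgfb1 was 0.13 with library totals, 0.021 with the stricter gate and Smad2 was 0.10 with library totals. With a library left out, Smad2 ran from -0.089 to 8.9e-06. In the interaction, Tgfbr1 was -0.11 with at least 3000 UMIs, -0.23 with the stricter gate, Tgfbr2 was -0.019 with DESeq2, -0.014 with RLE, -0.0058 with library totals, -0.021 with the mitochondrial limit, -0.025 without the deepest cells, -0.00029 with the stricter gate, Smad2 was 0.070 with at least 3000 UMIs, 0.048 with the mitochondrial limit and Smad4 was -0.033 without the deepest cells. With a library left out, Tgfbr1 ran from -0.22 to 0.27, Tgfbr2 ran from -0.071 to 0.018, Nrros ran from -0.024 to 0.16, Smad2 ran from -0.14 to 0.058, Smad3 ran from -0.040 to 0.47 and Smad4 ran from -0.016 to 0.082. In Apoe-high cells against microglia, Nrros was -0.051 without Hevin replicate 1, a value without a test. A count of 3 UMIs stands for 7.71 to 16.9 CPM in astrocytes and for 1.05 to 1.96 CPM in endothelial cells, which limits what could be seen there.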
